A study of Rattus norvegicus with 2 samples.

Results

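The genes described are 8 transcription factors that set the regional and enterocyte identity of intestinal epithelium, taken by gene symbol. No threshold on a measured value was used, but earlier results of these data were known when they were chosen. They are Pdx1 (ENSRNOG00000046458), Onecut2 (ENSRNOG00000052665), Gata4 (ENSRNOG00000010708), Gata6 (ENSRNOG00000023433), Cdx1 (ENSRNOG00000060334), Cdx2 (ENSRNOG00000032759), Hnf4a (ENSRNOG00000008895) and Hnf4g (ENSRNOG00000008971). Each symbol stood on 1 row of the 32883 genes listed, so all 8 members were found and none was dropped.

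The epithelium of the small intestine is renewed from stem cells in the crypts, whose descendants become absorptive enterocytes or secretory cells as they move onto the villus. The homeobox proteins CDX1 and CDX2 specify the intestine as opposed to the stomach, and CDX2 is needed for enterocyte differentiation. GATA4 marks and maintains the proximal part of the small intestine, and GATA6 is also present in the ileum and in crypts. The homeobox protein PDX1, best known from the pancreas, and the cut-homeobox protein ONECUT2 are enriched at the duodenal end. HNF4A and its paralog HNF4G are nuclear receptors that bind the regulatory elements of enterocyte genes for brush border and lipid handling. None of these roles was measured here, since the data hold transcript counts only.

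Jejunal epithelium was profiled from 2 adult male Sprague Dawley rats with single cells captured in droplets and sequenced from the 3′ end, 1 library for each rat. Both rats were 6 to 8 weeks old and weighed 180 to 200 g by the labels, had no genetic change or treatment, were fasted overnight, and gave proximal jejunum from which the epithelium was released with EDTA and dispase II. There was therefore 1 condition, and cell classes were compared over the 2 rats, while a difference between the rats was a difference between 2 libraries and was given without a test. Of 12033 barcodes in rat 1 and 8252 in rat 2, 6035 and 2303 had over 5000 UMIs and at most 40% mitochondrial UMIs. A UMI (unique molecular identifier) marks 1 captured transcript molecule, and the retained cells had medians of 12231 and 13334 UMIs. The libraries shared 28 barcodes, 4 of them among the retained cells of both.

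The retained cells were clustered without the 8 members, and each cluster was named from marker genes, so that every class below is to be read as "crypt-like", "enterocyte-like" and so on. Crypt cells numbered 1214 in rat 1 and 31 in rat 2. Enterocytes numbered 4009 and 1128, secretory progenitors 205 and 18, goblet/Paneth cells 168 and 137, enteroendocrine cells (EECs) 21 and 11, tuft cells 11 and 129, and CFTR high expressing cells (CHEs) 7 and 79. The goblet/Paneth class held a cluster led by Paneth defensins (127 and 35 cells) and a cluster led by the goblet genes Zg16 and Fcgbp (41 and 102 cells), so different clusters made up most of it in the 2 rats. Leukocytes (7 and 236 cells) and erythroid cells (24 and 305) served as classes that should lack these factors. Enterocytes were ranked by a villus score, the mean log level of 9 villus genes, and cut within each rat into 3 ranges of equal size called early, middle and mature. The ranges are not cell types. The cuts fell at scores of 1.58 and 2.24 in rat 1 and at 2.17 and 2.69 in rat 2, so that early enterocytes of rat 2 scored higher than those of rat 1, and 21.9% and 22.1% of enterocytes lay within 0.1 of a cut.

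Levels are given as CPM, a gene's UMIs for every 1000000 UMIs of the class in that rat, with exact Poisson 95% intervals that cover counting error only. A level of CPM was not compared between different genes, because 3′ counting captures genes unequally. In bulk sums of cells, fewer cells that express a gene and less RNA per cell cannot be told apart. Fold changes from the tests were scaled by TMM, which differs from scaling by total UMIs by 0.93 (log2) for enterocytes minus crypt cells, 0.74 for mature minus early enterocytes, -0.33 for goblet/Paneth cells, -0.71 for EECs, -1.06 for tuft cells and -0.56 for CHEs, each minus enterocytes. A fold change on the TMM scale can therefore have another sign than the CPM values beside it. Leukocytes of rat 2 held between 0 and 7.07 CPM of each member, taken as a guide to free RNA in that library. Only cells with at most 10 UMIs of the epithelial genes were kept as leukocytes or erythroid cells. Free epithelial RNA may therefore be understated in them.

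Promoter windows of 250 bases before to 50 bases after the annotated start were taken from RefSeq (build GRCr8) for 5 of the 8 members, with Hnf4a having 2 windows. Those of Pdx1, Cdx1 and Cdx2 are shown because Pdx1 and Cdx1 are the members with a window that passed 4-fold between the rats, and because Pdx1 and Cdx2 are neighbouring genes on chromosome 12. Capitals mark the letters TTTAT, the core of the motif bound by CDX proteins, read on either strand (ATAAA on the other strand).
Pdx1, chr12:12799107-12799406, minus strand: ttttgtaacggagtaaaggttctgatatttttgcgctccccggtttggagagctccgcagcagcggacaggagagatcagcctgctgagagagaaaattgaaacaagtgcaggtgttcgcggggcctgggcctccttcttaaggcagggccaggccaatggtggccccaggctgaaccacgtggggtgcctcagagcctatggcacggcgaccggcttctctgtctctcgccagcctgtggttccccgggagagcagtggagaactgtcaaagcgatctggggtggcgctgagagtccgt
Cdx1, chr18:56761250-56761549, minus strand: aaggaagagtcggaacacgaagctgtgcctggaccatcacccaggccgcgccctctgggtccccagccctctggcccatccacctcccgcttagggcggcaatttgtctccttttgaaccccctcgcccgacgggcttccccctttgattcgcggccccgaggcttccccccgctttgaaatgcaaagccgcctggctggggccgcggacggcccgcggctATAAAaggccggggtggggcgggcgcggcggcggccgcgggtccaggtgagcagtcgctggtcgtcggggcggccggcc
Cdx2, chr12:12762654-12762953, plus strand: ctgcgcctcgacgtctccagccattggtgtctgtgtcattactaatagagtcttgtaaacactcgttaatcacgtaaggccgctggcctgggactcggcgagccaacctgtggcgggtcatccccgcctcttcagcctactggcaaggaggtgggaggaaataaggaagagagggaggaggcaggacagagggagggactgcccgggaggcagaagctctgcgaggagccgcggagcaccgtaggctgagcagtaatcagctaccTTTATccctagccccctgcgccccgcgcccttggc
The Cdx1 window held the motif 29 bases before the start, within letters that also read as a TATA box, and the Cdx2 window held it 15 bases after the start. These letters were not in the Pdx1 window. Of 33469 windows of the same length, 42.5% held TTTAT on either strand, so a match is common and is only a description. The first Hnf4a window (chr3:172605970-172606269, plus strand) held the core of the motif of ONECUT factors, ATCAAT, 29 bases before the start. A motif of GATA factors, AGATAA, stood 22 bases before it. The ONECUT letters stood in 8.06% of all windows, and a GATA motif (the letters just named, also with T first or G last, either strand) stood in 30.3%. Neither the letters CAAAGTC of the HNF4 motif (4.61% of windows) nor any of the others were in the Gata6 window.

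Across the 9 classes of epithelial cells, 3 kinds of pattern were seen among the members. Cdx2, Hnf4a, Gata4 and Gata6 had UMIs in every class of both rats. Hnf4g was highest in enterocytes of both rats and lower in every secretory class. Pdx1, Onecut2 and Cdx1 depended most on the rat. Pdx1 outside EECs and Onecut2 were nearly absent from rat 1, and Cdx1 was nearly absent from enterocytes of rat 2. Tuft cells and CHEs of rat 1, and for Onecut2 also its EECs, held too few UMIs to show absence.

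**Figure D1:**
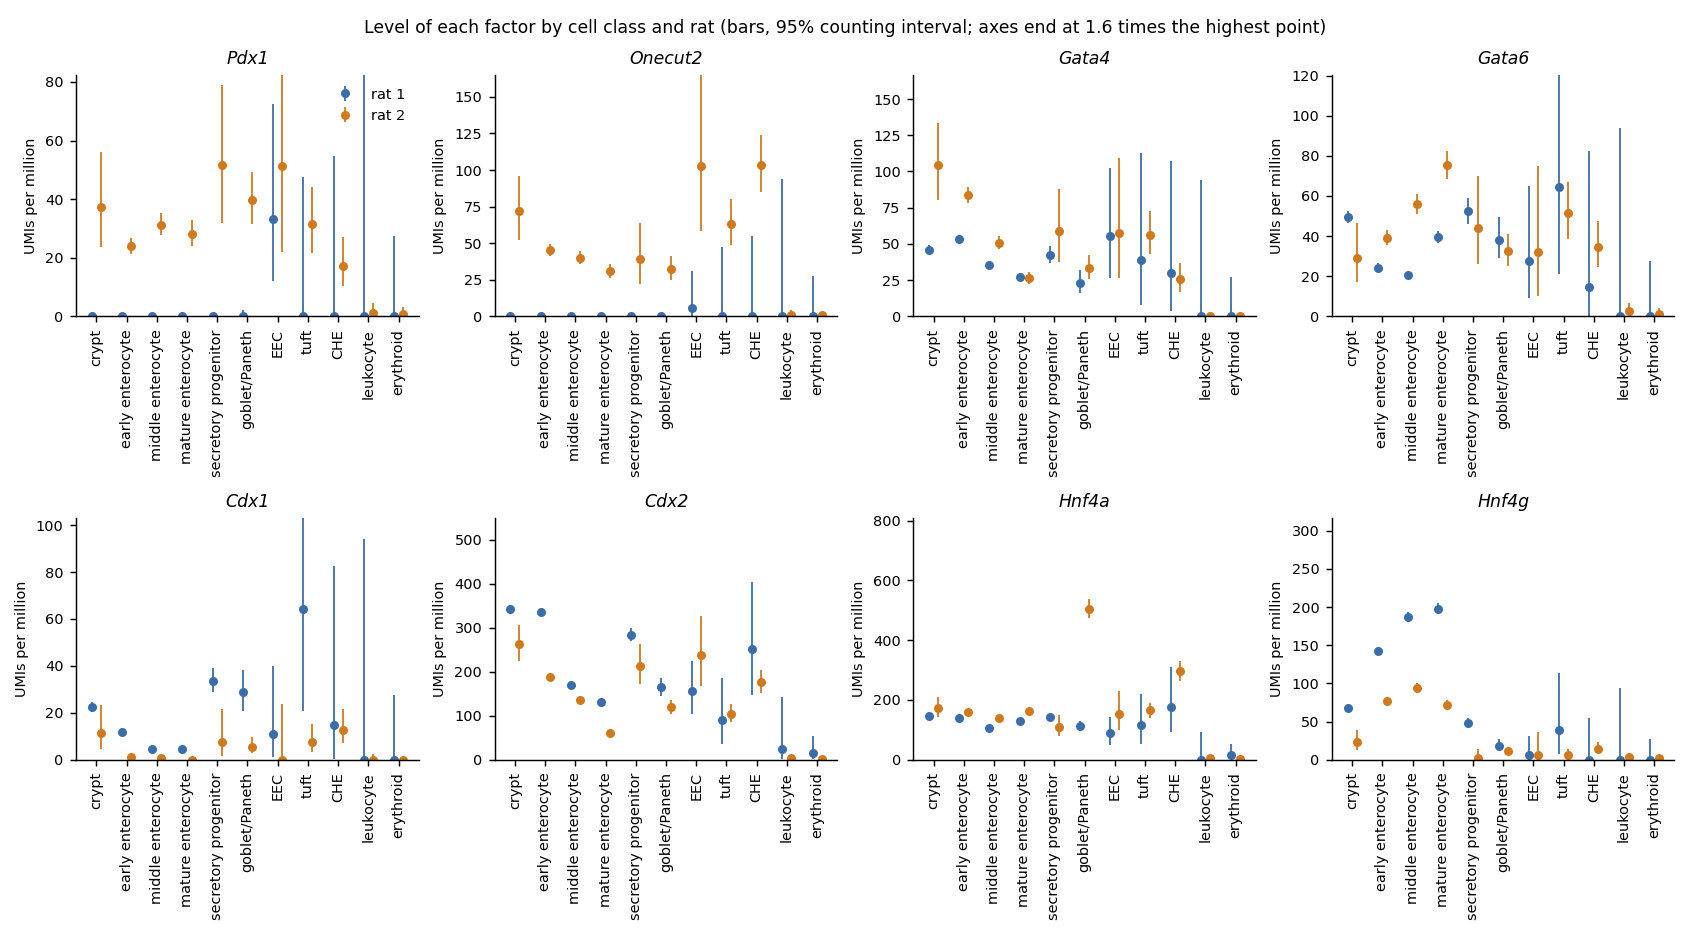
Level of each of the 8 transcription factors in 9 cell classes of rat 1 and rat 2, and in leukocytes and erythroid cells, as CPM of the summed UMIs, with bars for the exact Poisson 95% interval, some of which run past the axis, and a separate axis from 0 for each gene. Hnf4g reached 198 CPM in mature enterocytes of rat 1 and at most 48.4 CPM in its secretory classes, and Pdx1 of rat 1 stood above 1 CPM only in EECs, at 33.3.

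The duodenal factors Pdx1 and Onecut2 were found throughout the epithelium of rat 2 and scarcely in rat 1. In enterocytes, Pdx1 had 4 UMIs in rat 1 (0.0740 CPM, interval 0.0202 to 0.189) and 732 UMIs in rat 2 (27.4 CPM, interval 25.4 to 29.4), a ratio of 370 (144 to 1362). Onecut2 had 7 UMIs in rat 1 (0.130 CPM) and 1077 in rat 2 (40.3 CPM), a ratio of 311 (151 to 776). Among 9926 genes with at least 50 UMIs in enterocytes of the 2 rats, these were the highest and the second highest ratios of rat 2 over rat 1.

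Pdx1 of rat 2 stood at 37.5 CPM in crypt cells and at 23.9, 31.4 and 28.2 CPM in early, middle and mature enterocytes. Its secretory levels in rat 2 were 51.6 CPM in secretory progenitors, 39.7 in goblet/Paneth cells, 51.3 in EECs, 31.4 in tuft cells and 17.4 in CHEs. No neighbours in this order of levels differed beyond their counting error, while classes further apart did: goblet/Paneth cells (31.5 to 49.4) and secretory progenitors (31.9 to 78.8) had intervals above those of early enterocytes (21.1 to 26.8) and CHEs (10.5 to 27.1). In leukocytes and erythroid cells of rat 2 it was at 1.29 and 0.913 CPM. Crypt cells of rat 1 held 3 UMIs (0.153 CPM), against which rat 2 was 246-fold higher (74.2 to 1278). Secretory progenitors and goblet/Paneth cells of rat 1 held none, so rat 2 was at least 88.4-fold and at least 20.7-fold higher, with the rat 1 sum set at 3 UMIs. Tuft cells and CHEs of rat 1 were too few for a difference to be detectable at this depth.

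EECs, the hormone-secreting cells of the epithelium, were the exception for Pdx1 in rat 1. Their 21 cells held 6 UMIs (33.3 CPM, interval 12.2 to 72.6) and the 11 EECs of rat 2 held 8 UMIs (51.3 CPM, interval 22.2 to 101), a ratio of 1.54 whose interval (0.47 to 5.38) includes 1. Within rat 1, EECs stood above the next class, crypt cells, by 219-fold (46.7 to 1350). The UMIs came from 3 cells in each rat. Of those 3 cells, 1 in rat 1 and 2 in rat 2 had at least 10 UMIs of Gip, the incretin of K cells, and 2 in each rat had at least 10 UMIs of Gast (gastrin). The counts are too small to tie Pdx1 to a hormone. Onecut2 in EECs had 1 UMI in rat 1 (5.56 CPM) and 16 in rat 2 (103 CPM), a ratio of 18.5 (2.87 to 775).

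Onecut2 of rat 2 was at 71.7 CPM in crypt cells and at 45.3, 40.2 and 30.9 CPM in early, middle and mature enterocytes. CHEs, cells with a high level of the chloride channel gene Cftr, held 113 UMIs (103 CPM, interval 85.2 to 124), tuft cells 62.9 CPM, secretory progenitors 39.3 CPM and goblet/Paneth cells 32.4 CPM. CHEs and EECs stood at the top of this order, and the neighbours that differed beyond counting error were tuft cells and early enterocytes. In rat 1 the class with the most Onecut2 UMIs was the crypt, with 11 (0.559 CPM), and the goblet/Paneth, tuft and CHE classes held none. At the depth of the tuft and CHE sums, a count of 0 allows up to 47.55 and 54.62 CPM. The interval of the ratio lay above 1 in rat 2 for Onecut2 in 9 of 9 classes and for Pdx1 in 6 of 9 classes.

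After each cell was thinned to 5000 UMIs, 10.8% of rat 2 enterocytes had a Pdx1 UMI (122 of 1128) against 0.0249% of rat 1 (1 of 4009). The corresponding shares for Onecut2 were 14.7% and 0.0249%. Without thinning they were 41.1% and 0.0998% for Pdx1 and 52.6% and 0.175% for Onecut2, where the median enterocyte held 24706 UMIs in rat 2 and 11998 in rat 1. Leukocytes of rat 2, with a median of 5822 UMIs, had thinned shares of 0.848% and 0.424%, and the shares in rat 2 enterocytes lay above these. Rat 1 had 7 leukocytes, too few to measure its own background.

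The genes next to Pdx1 and Onecut2 in RefSeq order were read as a description of their surroundings. On chromosome 12, Polr1d, a subunit gene of RNA polymerases near Pdx1, was at 86.3 CPM in rat 1 enterocytes and 40.7 in rat 2, and Cdx2 on the other side was also lower in rat 2. Beside Onecut2, Fech, the last enzyme of heme synthesis, had a ratio of rat 2 over rat 1 of 0.731. The uncharacterised RGD1562699 on the other side of Onecut2 had 1 UMI in rat 1 and 39 in rat 2, a ratio of 78.9 (13.4 to 3194). The deposited counts are not stated to tell overlapping transcripts apart, so UMIs beyond an annotated end may be assigned to a neighbour.

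The CDX factors went the other way between the rats. Cdx1 had 397 UMIs in enterocytes of rat 1 (7.34 CPM, interval 6.64 to 8.10) and 17 in rat 2 (0.636 CPM, interval 0.370 to 1.02), so rat 1 was 11.6-fold higher (7.12 to 20.0). Mature enterocytes of rat 2 held no Cdx1 UMI, which makes rat 1, at 4.75 CPM, at least 9.65-fold higher. Thinned to 5000 UMIs, 3.64% of enterocytes in rat 1 and 0.266% in rat 2 had a Cdx1 UMI. No leukocyte of either rat had any, but a count of 0 allows shares up to 41.0% in rat 1 and 1.55% in rat 2. These lie above the enterocyte shares, so the leukocytes could not measure the background of Cdx1. In 6 of 9 classes the interval of the ratio put Cdx1 higher in rat 1, and in none higher in rat 2. CHEs were among the others, with 14.8 CPM from 1 UMI in rat 1 and 12.8 CPM from 14 UMIs in rat 2.

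Within each rat, Cdx1 was a gene of crypt and secretory cells more than of enterocytes by level. In rat 1 it stood at 22.5 CPM in crypt cells, 33.6 in secretory progenitors, 28.7 in goblet/Paneth cells, 64.5 in tuft cells (5 UMIs) and 11.1 in EECs (2 UMIs). Early, middle and mature enterocytes of rat 1 were at 12.0, 4.78 and 4.75 CPM. In rat 2 it stood at 11.4 CPM in crypt cells (7 UMIs), 7.37 in secretory progenitors, 5.39 in goblet/Paneth cells and 7.62 in tuft cells, and at 1.03, 0.556 and 0 CPM in early, middle and mature enterocytes. EECs of rat 2 held none. Within the goblet/Paneth class Cdx1 was at 33.6 and 7.71 CPM in the Paneth-led and at 11.6 and 4.32 CPM in the goblet-led cluster of rats 1 and 2. In the rat 2 order, goblet/Paneth cells above early enterocytes were the neighbours that differed beyond counting error, and in rat 1 no neighbours did.

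Cdx2 was present in every epithelial class. It was at 344 CPM in crypt cells of rat 1 and 262 in those of rat 2, at 336 and 189 CPM in early, 170 and 136 in middle and 132 and 61.5 in mature enterocytes. Secretory progenitors had 284 and 214 CPM, goblet/Paneth cells 165 and 119, EECs 156 and 237, tuft cells 90.2 and 105, and CHEs 252 and 177. The levels in CPM were thus lower in mature than in early enterocytes of both rats, while crypt cells and early enterocytes of rat 1 differed by less than counting error. In leukocytes of rat 2 Cdx2 was at 3.21 CPM. Over all enterocytes rat 1 was 1.53-fold higher (1.48 to 1.59), and the interval put Cdx2 higher in rat 1 in 6 of 9 classes. On the log2 scale Cdx2 had a ratio of rat 2 over rat 1 of -0.615, against a median of -0.268 over 9926 genes. It ranked 3286th of these toward rat 1, so its difference was not unusual among all genes. The CPM of Cdx2 fell along the villus score, whose median in enterocytes was 2.01 in rat 1 and 2.43 in rat 2. The enterocyte ratios are thus not matched for maturity. In bins of like score the gap was smaller, with 299 CPM in rat 1 (mean score 1.23) and 248 in rat 2 (1.28). Further along it was 145 CPM in rat 1 (2.22) and 142 in rat 2 (2.20).

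The share of Cdx1 in the summed UMIs of Cdx1 and Cdx2 needs no scaling between classes. It was 6.15% in crypt cells of rat 1 (5.61 to 6.73) and 4.17% in those of rat 2 (1.69 to 8.40), with exact Clopper-Pearson 95% intervals. In enterocytes it was 3.26% (2.95 to 3.59) and 0.445% (0.260 to 0.712). In goblet/Paneth cells it was 14.8% in rat 1 (11.04 to 19.36) and 4.33% in rat 2 (2.18 to 7.62), and in secretory progenitors 10.6% and 3.33%. Enterocytes thus had a lower Cdx1 share than goblet/Paneth cells in each rat, with intervals that did not overlap.

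The GATA pair changed its balance along the enterocyte range. Gata4 was at 53.1 CPM in early, 35.3 in middle and 27.1 in mature enterocytes of rat 1, and at 83.6, 50.9 and 26.3 CPM in those of rat 2. Gata6 was at 24.2, 20.5 and 39.4 CPM in rat 1 and at 39.3, 55.8 and 75.3 CPM in rat 2. The share of Gata6 in the UMIs of the pair was 31.3% in early enterocytes (28.9 to 33.7), 36.8% in middle (33.8 to 39.8) and 59.2% in mature ones (56.3 to 62.2) of rat 1. In rat 2 it was 32.0% (29.6 to 34.5), 52.3% (49.1 to 55.5) and 74.2% (70.5 to 77.6). Each range lay above the one before it in both rats, and the early shares of the rats differed by less than their intervals. The early ranges cover unlike scores, with medians of 0.887 in rat 1 and 1.83 in rat 2, so these shares are not matched for maturity.

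**Figure D2:**
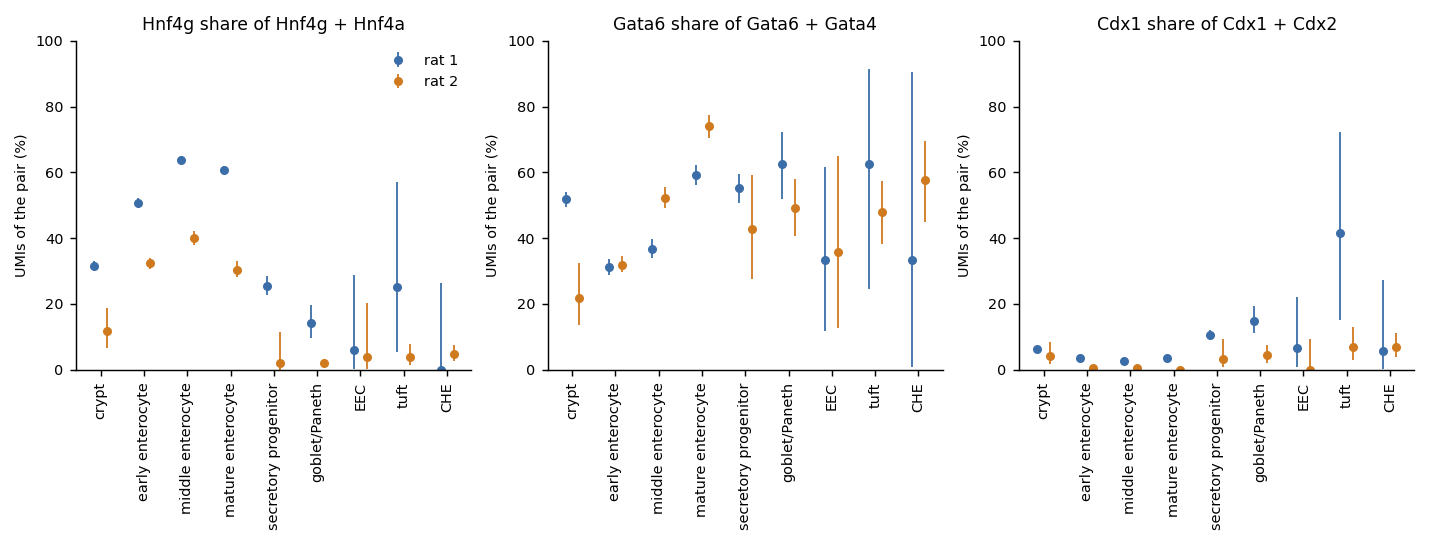
Share of Hnf4g in the UMIs of Hnf4a and Hnf4g, of Gata6 in Gata4 and Gata6, and of Cdx1 in Cdx1 and Cdx2, in percent, by cell class and rat, with exact Clopper-Pearson 95% intervals. Gata6 took 31.3% and 32.0% of its pair in early enterocytes and 59.2% and 74.2% in mature enterocytes of rats 1 and 2.

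In finer steps of the villus score, with enterocytes of each rat cut into 10 bins of equal size, Gata4 was at 59.8 CPM in the lowest bin and 18.6 in the highest of rat 1, and at 97.5 and 17.0 CPM in rat 2. Gata6 was at 35.5 CPM in the lowest and 53.9 in the highest bin of rat 1, with lower values between them, and at 33.8 and 81.0 CPM in rat 2. Cdx2 went from 382 to 107 CPM and from 248 to 39.1 CPM. Hnf4a was at 148 and 165 CPM at the ends in rat 1 and at 202 and 145 CPM in rat 2, and so had no common direction. Depth and mitochondrial share differed along the score as well: the median cell held 11912 UMIs in early and 11416.5 in mature enterocytes of rat 1 and 29907 and 14719.5 in rat 2, with median mitochondrial shares of 13.7% and 13.1% in rat 1 and 23.2% and 28.3% in rat 2. Their part in these levels was not tested. With cells limited to 20% mitochondrial UMIs, the Gata6 share over all enterocytes of rat 2 was 39.8% in place of 47.1%.

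Leukocyte markers were also read along the score. Of the 8 markers with a row, Cd74, an antigen-presentation gene that enterocytes also express, went from 27.3 to 2107 CPM between early and mature enterocytes of rat 1 and from 162 to 896 CPM in rat 2. The T-cell gene Cd3g went the other way, from 26.5 to 2.68 CPM in rat 1 and from 5.66 to 1.97 CPM in rat 2. The chemokine gene Ccl5 was at 12.8 and 13.3 CPM in rat 1 and at 14.5 and 32.7 CPM in rat 2, and Cd3e, Cd52, Jchain and Nkg7 were between 0 and 2.63 CPM in all ranges. Ptprc, which defines leukocytes, stayed between 0.670 and 1.04 CPM in rat 1 and between 2.00 and 3.77 CPM in rat 2 over the 3 ranges, against 255 and 752 CPM in the leukocytes.

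**Figure D3:**
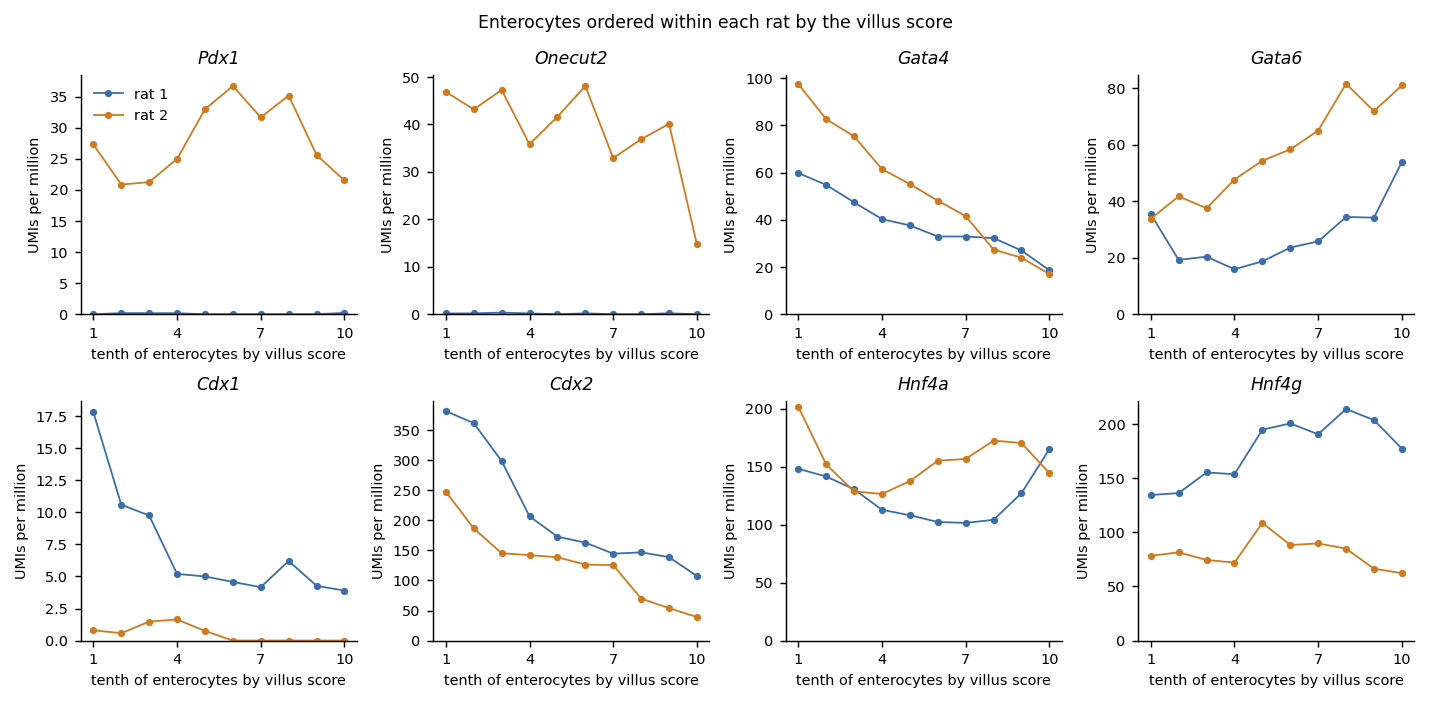
Level of each of the 8 factors in CPM across 10 bins of enterocytes ranked by the villus score, lowest to highest, in rat 1 and rat 2. Gata4 and Cdx2 stood lower in the highest than in the lowest bin of both rats, as levels per total UMIs, and Gata6 stood higher.

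Outside enterocytes the CPM of Gata4 was lower in goblet/Paneth than in crypt cells of both rats, with intervals that did not overlap. It was at 46.0 and 104 CPM in crypt cells of rats 1 and 2, 42.6 and 59.0 in secretory progenitors, 23.0 and 33.4 in goblet/Paneth cells, 55.6 and 57.7 in EECs, 38.7 and 56.2 in tuft cells and 29.6 and 25.6 in CHEs. Gata6 was at 49.5 and 29.3 CPM in crypt cells, 52.3 and 44.2 in secretory progenitors, 38.3 and 32.4 in goblet/Paneth cells, 27.8 and 32.1 in EECs, 64.5 and 51.4 in tuft cells and 14.8 and 34.8 in CHEs. The Gata6 share in crypt cells was 51.8% in rat 1 (49.6 to 54.1) and 22.0% in rat 2 (13.6 to 32.5), above that of early enterocytes in rat 1, while in rat 2 its interval overlapped theirs. Rat 2 had only 31 crypt cells with 82 UMIs of the pair. No leukocyte or erythroid cell held a Gata4 UMI. Over all enterocytes rat 2 was higher, 1.52-fold for Gata4 (1.42 to 1.62) and 1.93-fold for Gata6 (1.79 to 2.07). These ratios are not matched for maturity. In bins of like score the Gata4 gap was wider, with 47.4 CPM in rat 1 (mean score 1.23) and 97.5 in rat 2 (1.28). Further along Gata4 was at 32.9 CPM in rat 1 (2.22) and 61.5 in rat 2 (2.20). Gata6 in the same bins was at 20.4 and 33.8 CPM, and further along at 25.8 and 47.7 CPM.

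Of the HNF4 pair, Hnf4g differed between the absorptive and the secretory lineage. Hnf4g was at 67.3 CPM in crypt cells, 143 in early, 187 in middle and 198 in mature enterocytes of rat 1, and at 22.8, 76.7, 93.6 and 71.2 CPM in rat 2. It was at 48.4 and 2.46 CPM in secretory progenitors, 18.5 and 10.8 in goblet/Paneth cells, 5.56 and 6.41 in EECs, 38.7 (3 UMIs) and 6.67 in tuft cells, and 0 and 14.6 in CHEs of rats 1 and 2. Enterocytes of every range thus lay above every other class in each rat. In rat 1 the order mature, middle, early, crypt and secretory progenitor was separated by more than counting error at each step, and in rat 2 middle stood above early enterocytes, and mature enterocytes above crypt cells. Leukocytes of rat 2 held 3.85 CPM of Hnf4g, so the 1 UMI in its secretory progenitors and in its EECs cannot be told from background.

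Hnf4a was broad and much less graded. It was at 146 and 173 CPM in crypt cells, 138 and 161 in early, 106 and 141 in middle and 128 and 163 in mature enterocytes of rats 1 and 2. Secretory progenitors had 141 and 111 CPM, EECs 88.9 and 154, tuft cells 116 and 165, and CHEs 178 and 295. Goblet/Paneth cells stood apart between the rats, with 113 CPM in rat 1 against 506 in rat 2, a ratio of 4.47 (3.81 to 5.28), and in rat 2 they and the CHEs were each above the next class by more than counting error. The goblet-led cluster held 226 and 659 CPM in rats 1 and 2 and the Paneth-led cluster 81.1 and 177 CPM, so the goblet-led cells were higher in both rats and made up more of the class in rat 2.

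The Hnf4g share of the pair was 31.6% in crypt cells of rat 1 (30.2 to 33.04) and 11.7% in rat 2 (6.53 to 18.8). In all enterocytes it was 58.4% (57.7 to 59.2) and 34.4% (33.2 to 35.6). It was 14.1% (9.63 to 19.6) and 2.09% (1.31 to 3.15) in goblet/Paneth cells, 25% and 3.89% in tuft cells, 5.88% and 4.00% in EECs and 0% and 4.72% in CHEs. Every enterocyte range had a higher Hnf4g share than crypt and goblet/Paneth cells of the same rat, with intervals that did not overlap. In mature enterocytes the share was 60.8% and 30.4%, below the 63.8% and 39.9% of the middle range. Between the rats, enterocytes of rat 1 held 2.15-fold more Hnf4g (2.05 to 2.26), while those of rat 2 held 1.25-fold more Hnf4a (1.20 to 1.30).

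The differences between the rats were set beside lists of genes known to mark the proximal or the distal small intestine, because both libraries are labelled proximal jejunum. The lists were chosen with earlier results of these data known. Counts of their genes are therefore a description and not independent support. Of 9926 genes in enterocytes, 1.56% were over 4-fold higher in rat 2 and 4.93% over 4-fold higher in rat 1. Their median log2 ratio of rat 2 over rat 1 was -0.268, so small ratios are to be read against that value. Among the members, Pdx1 and Onecut2 passed 4-fold in rat 2 and Cdx1 in rat 1, and the other 5 did not.

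Of the proximal list, all 6 genes compared pointed to rat 2, and 3 passed 4-fold. Trpv6, an apical calcium channel, was at 0.166 CPM in rat 1 and 27.5 in rat 2, a ratio of 165 (86.4 to 362). S100g, the calcium-binding calbindin of enterocytes, was at 146 and 5279 CPM, a ratio of 36.3. Gckr, the glucokinase regulator, had a ratio of 6.07. Lct, Cybrd1 and Slc46a1 stayed under 4-fold, and the median ratio of the list was 3.75.

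Of the distal list, none of 9 genes pointed to rat 2, and 3 passed 4-fold in rat 1. Fabp6, the ileal bile acid binding protein, was at 1167 CPM in rat 1 and 0.561 in rat 2, so that rat 1 was 2080-fold higher (1261 to 3717). Tspan8, a tetraspanin, was at 690 and 72.1 CPM, and Osr2, a zinc finger factor, at 49.3 and 7.44 CPM. Slc10a2, the ileal bile acid transporter, stayed under 4-fold, at 2.60-fold. The position along the intestine from which each rat was sampled, the animal, its library and the Cell Ranger version cannot be told apart here.

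**Figure D4:**
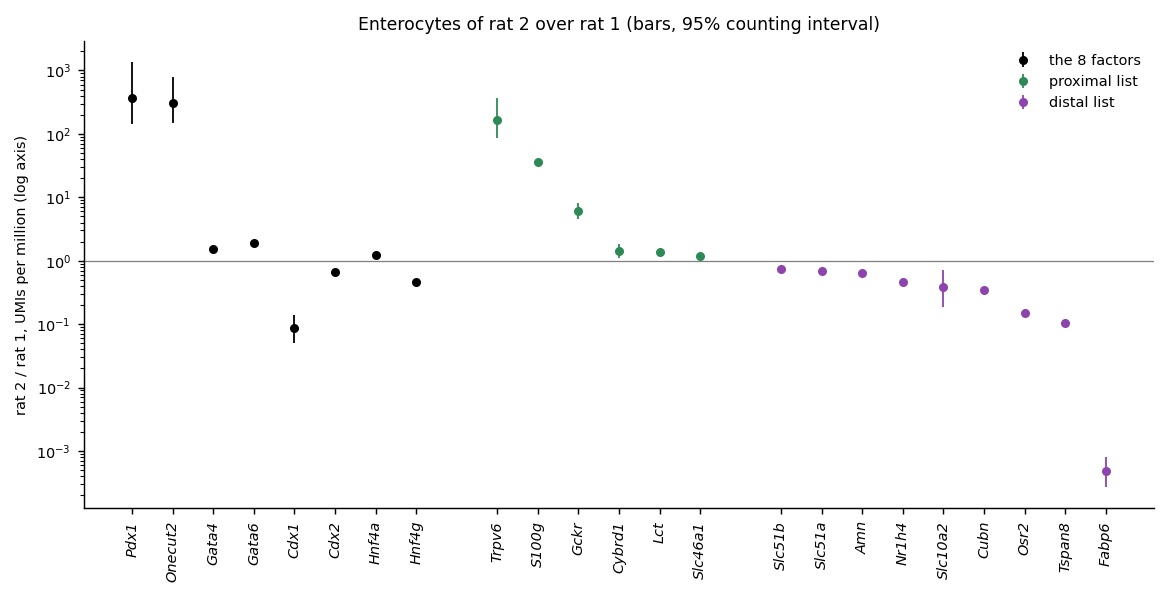
Ratio of rat 2 over rat 1 in enterocytes on a log axis, with exact 95% intervals, for the 8 factors and for the lists of proximal and distal small intestine genes. Pdx1 and Onecut2 lie at 370 and 311 with Trpv6 at 165, and Cdx1 lies below 1 on the side of the distal genes.

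Of 14 target genes described for these factors, none passed 4-fold between the rats, 9 were higher in rat 2, and the median ratio was 1.14, with Cdhr2 (2.11) and Slc5a1 (0.396) at the ends. Of 25 other gut transcription factors with at least 50 UMIs, Prdm1, a transcriptional repressor, was higher in rat 2 (5.4 and 42.8 CPM, 7.92-fold). Osr2, given above, was higher in rat 1.

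Cell classes were then tested over both rats with edgeR's quasi-likelihood test on the summed UMIs, with Benjamini-Hochberg adjustment over 10333 genes. Of these genes 43.2% changed between enterocytes and crypt cells, 6.03% between mature and early enterocytes, and 24.9%, 20.9%, 24.7% and 12.2% between goblet/Paneth cells, EECs, tuft cells and CHEs and enterocytes. All 8 members passed the filter on low counts. Hnf4g changed in 5 of these 6 comparisons, Cdx2 in 1, and the other 6 members in none. A member called in a comparison where a large share of all genes was called is no result about the members as a set.

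Hnf4g was higher in enterocytes than in crypt cells by 2.23 ± 0.78 on the log2 scale (SE, adjusted p = 0.032), with 1.98 in rat 1 and 3.01 in rat 2. Scaled by total UMIs the difference was 1.44 with an adjusted p of 0.121, and over all alternatives the adjusted p lay between 0.000303 and 0.121. Against enterocytes, it fell by 3.43 ± 0.87 in goblet/Paneth cells (adjusted p = 0.0092; -3.51 and -3.21 in the rats), by 5.06 ± 1.22 in EECs (adjusted p = 0.0080) and by 4.31 ± 1.08 in tuft cells (adjusted p = 0.0089). In CHEs it fell by 3.72 ± 1.00 (adjusted p = 0.024), with no UMI in the 7 CHEs of rat 1 and -2.89 in rat 2. These 4 secretory calls held under every alternative that could be fitted, the highest adjusted p being 0.0499, in CHEs.

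Cdx2 was lower in tuft cells than in enterocytes, and fell by 1.65 ± 0.42 (adjusted p = 0.0092), with -2.19 in rat 1 and -1.19 in rat 2 on 7 and 110 UMIs. Scaled by total UMIs the difference was -0.66 (adjusted p = 0.259), so this call depends on the scaling, and the adjusted p over all alternatives ranged from 0.0017 to 0.259. Between enterocytes and crypt cells Cdx2 differed by -0.09 ± 0.35 (adjusted p = 0.864), while scaling by total UMIs gave -0.95 (adjusted p = 0.0455).

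The classes of a rat come from the same animal, and a fit with the rat as a block called 54.9% of genes between enterocytes and crypt cells, 27.6% between mature and early enterocytes, 37.1% for goblet/Paneth cells, 27.2% for EECs, 35.8% for tuft cells and 19.3% for CHEs. In that fit Cdx1 was also called in 4 comparisons, in which the fit without the block gave adjusted p between 0.176 and 0.523. With the block Cdx1 fell by 1.79 ± 0.53 on the log2 scale from crypt cells to enterocytes (adjusted p = 0.0088, between 0.0088 and 0.349 over all alternatives). It was higher than in enterocytes by 2.21 ± 0.51 in goblet/Paneth cells (adjusted p = 0.0025, 0.0016 to 0.585 over all alternatives). In tuft cells it was higher by 2.32 ± 0.70 (adjusted p = 0.016, 0.016 to 0.733), and in CHEs by 2.95 ± 0.70 (adjusted p = 0.0060, 0.0060 to 0.568). The CHE difference was 0.53 in rat 1, on 1 UMI, and 4.07 in rat 2.

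Gata4 with the block fell by 0.93 ± 0.30 in goblet/Paneth cells against enterocytes (adjusted p = 0.020, 0.020 to 0.345 over all alternatives) and by 1.29 ± 0.39 in CHEs (adjusted p = 0.027, 0.027 to 0.413). Without the block these were -0.92 (adjusted p = 0.119) and -1.15 (adjusted p = 0.149). Gata6 with the block was higher in mature than in early enterocytes by 1.6 ± 0.51 (adjusted p = 0.026, 0.026 to 0.254 over all alternatives). Without it the difference was 1.62 ± 0.61 (adjusted p = 0.105), with 1.39 in rat 1 and 1.72 in rat 2.

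**Figure D5:**
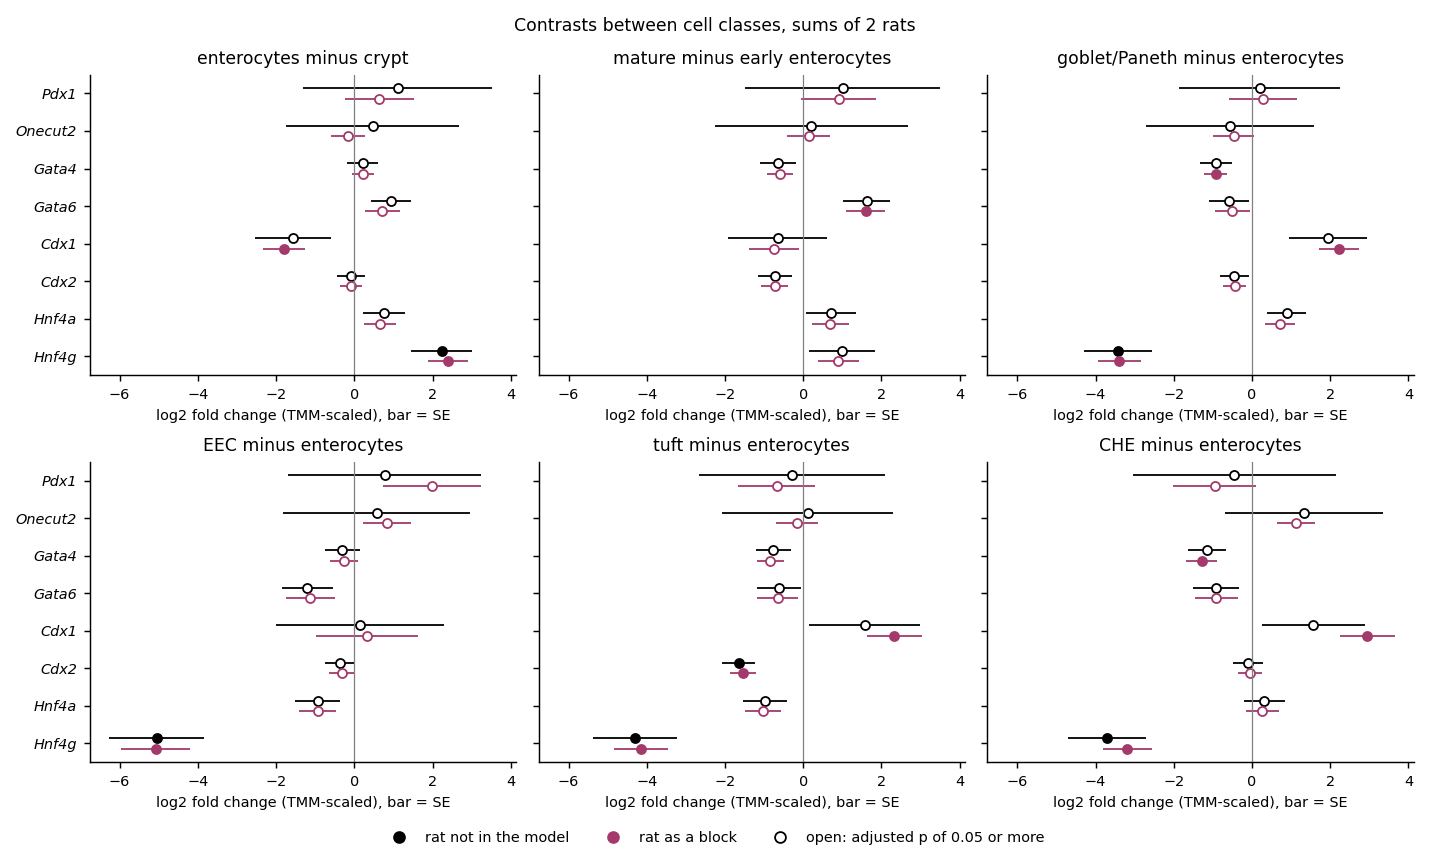
Log2 fold change of each of the 8 factors in 6 comparisons of cell classes, from edgeR with TMM scaling, with bars for the SE, in black without and in purple with the rat as a block, filled where the adjusted p was under 0.05. Hnf4g lies at 2.23 in enterocytes minus crypt cells and between -5.06 and -3.43 in the secretory classes minus enterocytes, and Cdx2 is called in tuft cells, a call that scaling by total UMIs loses.

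The remaining differences did not pass the test without or with the block. Mature against early enterocytes gave -0.72 ± 0.44 for Cdx2 (adjusted p = 0.305) and -0.65 ± 0.47 for Gata4 (adjusted p = 0.396), whose levels per total UMIs were lower in mature enterocytes of both rats. Hnf4a differed by 0.88 ± 0.49 between goblet/Paneth cells and enterocytes (adjusted p = 0.217), with -0.42 in rat 1 and 1.36 in rat 2. With the goblet-led cluster alone in that class, chosen as an alternative after the data were seen, the Hnf4a difference was 1.92 (adjusted p = 0.0064), and with the Paneth-led cluster alone it was -0.79 (adjusted p = 0.166). Pdx1 and Onecut2 had SEs between 2.01 and 2.6 without the block and between 0.43 and 1.26 with it, and neither passed the test in either fit.

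Other transcription factors of the gut were counted from a list of 32, of which 25 were tested. Between enterocytes and crypt cells 7 rose, 3 fell and 15 did not pass, with a median of 0.62. The enterocyte regulators Maf and Creb3l3 rose by 5.26 and 5.14, and the secretory factor Foxa2 fell by 7.01. Against enterocytes, 4 rose and 8 fell in goblet/Paneth cells, 2 rose and 6 fell in EECs, 1 rose and 7 fell in tuft cells, and 1 rose and 4 fell in CHEs. Foxa2 and Foxa3 rose by 7.87 and 7.80 in goblet/Paneth cells and by 8.74 and 5.09 in EECs, and Sox9, a factor of crypt and tuft cells, rose by 7.07 in tuft cells. In mature against early enterocytes Prdm1 was the factor that rose (5.95 ± 1.5, adjusted p = 0.039), and the other 24 did not pass. With the rat as a block 5 rose and 2 fell in that comparison, 7 rose and 12 fell in goblet/Paneth cells, and 3 rose and 5 fell in CHEs. The 8 members by the same count had 1 rise and no fall between enterocytes and crypt cells, against a median of all genes of -0.09.

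Of 13 tested genes described as targets of these factors, all 13 rose from crypt cells to enterocytes, with a median of 4.18, among them Apoc3 (5.46), Si (5.36), Lct (4.85) and Cdhr2 (4.56). In mature against early enterocytes Apob and Apoc3, both of lipoprotein assembly, rose by 3.70 and 2.88, and the other 11 did not pass. None rose and 9, 8, 10 and 8 fell in goblet/Paneth cells, EECs, tuft cells and CHEs. Of the proximal list 4 of 6 rose and of the distal list 4 of 8 rose from crypt cells to enterocytes. The distal genes Cubn and Amn, subunits of a receptor for vitamin B12 uptake, rose by 5.79 and 3.15 in mature against early enterocytes, and no proximal gene passed there. With the rat as a block, 4 of 6 proximal genes rose and 2 distal genes rose and 3 fell in that comparison, and 6 of the 13 targets rose. Against enterocytes with the block, 13 targets fell in EECs, 13 in tuft cells and 9 in CHEs, and none rose there. In goblet/Paneth cells 11 fell and 1 rose with the block.

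The genes whose pattern was most like each member were found by Pearson's r of log2 CPM, centred within each rat, over the 18 sums and among 9004 genes. These sums share their libraries and differ in depth, so r is a description. The nearest genes to Hnf4g were Adap1 (0.956), Rap2c (0.948) and Sfxn1 (0.947). Cdx1 was nearest to Zmym4 (0.913), Fermt3 (0.910) and Gemin8 (0.907), Cdx2 to Nit2 (0.875), Lgals9 (0.871) and Lars (0.870), and Gata4 to Naa20 (0.895), Cisd1 (0.895) and Coq9 (0.893). Hnf4a was nearest to Tjp1 (0.829), Duoxa2 (0.763) and Ppp1r12a (0.749), and Gata6 to Acsl3 (0.742), Slc4a7 (0.740) and AABR07026424.1 (0.703). For Pdx1 the nearest were Scg2 (0.780), Nts (0.780) and Tac1 (0.779), of which Tac1 is an EEC marker used to name that class, and for Onecut2 they were Tmx4 (0.837), Tac1 (0.807) and Akap11 (0.787). Pdx1 and Onecut2 lacked 50 UMIs in rat 1, where a few UMIs set their pattern: EECs minus enterocytes was 6.17 for Pdx1 and 3.49 for Onecut2 in rat 1, and -0.07 and 0.46 in rat 2. Between the members themselves, Pdx1 and Onecut2 had an r of 0.788, Gata4 and Cdx2 of 0.526, and Gata6 and Cdx2 of -0.466.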

How the data were processed

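Single cells of proximal jejunum epithelium from 2 rats were sequenced, 1 library each. The authors deposited raw UMI counts for every gene in each barcode that Cell Ranger had called a cell, with reads aligned to Rnor6. The paper names version 5.0, while the headers of the matrices name 3.1.0 (rat 1) and 5.0.1 (rat 2). The matrices held 99986348 and 66469907 UMIs, and 4255 genes share a symbol with another.

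Cells with over 5000 UMIs and at most 40% mitochondrial UMIs were clustered with Seurat 5.3.0 in R 4.3.3 (rats integrated, 2000 variable genes, 20 components, resolution 0.3 and then 0.5). The 8 members and the gene lists, 66 genes in all, took no part in clustering. Clusters with a Ptprc UMI in over 25% of cells and clusters led by hemoglobin were removed. Cells of epithelial classes needed more than 10 UMIs of Epcam, Krt8, Krt18, Krt19 and Krt20. Cells of the removed clusters with more than 10 such UMIs, 261 in rat 1 and 88 in rat 2, entered no class. The marker levels required for a name were chosen with the clusters in view, and the names rebuilt here need not match those of the study. Named classes held 5635 cells of rat 1 and 1533 of rat 2. Doublets were kept. Scrublet, run in Python 3.11.15 with scanpy 1.11.5, called 119 of 6035 cells (1.97%) and 8 of 2303 (0.347%), and in rat 2 it may not have worked, so removing them was an alternative only. Of the symbols in the lists, Muc2, Cd79a, Hbb-bs, Pecam1 and Onecut3 matched no row, and Slc40a1 matched 2 rows and was left out of the ratios between rats.

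UMIs were summed per rat and class into 18 sums and tested with edgeR 4.0.16 in 1 model (TMM, its default filter, quasi-likelihood test, Benjamini-Hochberg adjustment at 0.05). Enterocytes are the mean of their 3 ranges. Differences shown for a single rat were computed with a prior count of 2, without a test. The p-values of the fit without the block rest on the spread between the 2 sums of each class, pooled over the classes. That fit treats the 18 sums as independent. The sums of a rat are not independent, since the same animal gave them. Over 36 pairs of classes the correlation of their deviations had a median of 0.219 and ranged from 0.0823 to 0.709, with 33 over 0.1. The study names no such test, so the block is an alternative. A floor of 3 UMIs stood for a count of 0. In the ranking, median and 4-fold shares of ratios over all genes it stood for every count under 3. Intervals between rats and between classes are exact and conditional on the counts (scipy 1.17.1), and all intervals cover counting error only. Ratios between rats used genes with at least 50 UMIs.

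The alternatives were DESeq2 1.42.0, scaling by totals, no filter, the block, each rat left out, the gene limits of the study, a mitochondrial limit of 20%, rats merged without integration, a higher resolution, doublets removed, mitochondrial genes left out of sums, ranges cut over both rats, no epithelial minimum and all variable genes. On counts simulated for each comparison with 200 changed genes, edgeR recovered 188 for enterocytes minus crypt cells (9782 genes), 150 for mature minus early enterocytes (9709 genes), and 170, 110, 112 and 131 for goblet/Paneth cells, EECs, tuft cells and CHEs. The changes were of 3 on the log2 scale, in genes with a mean count over 20, and no difference between rats was simulated. Recovery of smaller changes, or of genes that differ by rat, was not tested. The members and lists were chosen with earlier results of these data known. All 8 members are named, and of each list up to 4 genes past the threshold with the largest changes that go the same way in both rats, and in comparisons between rats those past 4-fold. The 3 nearest genes by r are named for each member. Genes named outside this rule (the leukocyte markers, hormone genes, Cdhr2 and Slc5a1 between rats, chromosomal neighbours, Lct, Cybrd1, Slc46a1 and Slc10a2 between rats) were chosen after their values were seen. Some genes that this rule names are not reported here.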

Additional observations from a re-analysis of the deposited data

Results flagged for a closer look

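The limits on cells left 5998 barcodes of rat 1 (median 1695.5 UMIs) and 5949 of rat 2 (median 3073 UMIs) outside every comparison, and the members had UMIs there above the limit that a count of 0 allows, which flagged these values. Pdx1 stood at 0.702 CPM in the left-out barcodes of rat 1 and 9.62 in those of rat 2, and Onecut2 at 22.7 CPM in rat 2. Gata4 stood at 17.4 and 14.4 CPM, Gata6 at 15.8 and 30.8, Cdx1 at 5.15 and 0.372, Cdx2 at 83.5 and 38.4, Hnf4a at 59.6 and 60.3, and Hnf4g at 64.6 and 34.3 CPM in rats 1 and 2. Pdx1 was thus higher in rat 2 also in barcodes that entered no class, and Cdx1, Cdx2 and Hnf4g in rat 1. Gata4, higher in rat 2 in enterocytes, was not. The higher Gata6 of rat 2 came from left-out barcodes over 40% mitochondrial, at 12.7 and 40.8 CPM in rats 1 and 2. In those of at most 5000 UMIs Gata6 was at 16.2 and 15.2 CPM.

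Of the 22 Pdx1 UMIs in all barcodes of rat 1, 6 were in the EECs, and 9 were in 3 of the 18 left-out barcodes with at least 10 UMIs of EEC markers, a level of 156 CPM (71.4 to 296). Those barcodes were picked by EEC markers and not by Pdx1. Because they entered no class, they are outside the EEC values above.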

How the results depend on the processing

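Each rat gave sums of all classes, while the main fit held no term for the rat. The fit with a replicate block changed none of the 6 calls of members and added 7, given above. Of 93 alternatives to those 6 calls, 91 kept direction and call, and 2, both with scaling by total UMIs, lost the call (Hnf4g in enterocytes minus crypt cells, 1.44, and Cdx2 in tuft cells, -0.66). Over 744 tested alternatives of all members, 695 kept direction and call and 35 changed sign, none of them past the threshold in either fit. Without TMM, signs changed for Pdx1 (-0.14), Onecut2 (-0.76), Gata4 (-0.78) and Hnf4a (-0.20) in enterocytes minus crypt cells, Onecut2 (-0.58) and Hnf4a (-0.041) in mature minus early enterocytes, Gata4 (0.42) and Cdx2 (0.33) in EECs, Pdx1 (0.79), Gata4 (0.24), Gata6 (0.44) and Hnf4a (0.058) in tuft cells, and Pdx1 (0.061) and Cdx2 (0.41) in CHEs. DESeq2 did so for Gata4 against crypt cells (-0.027), Gata4 (0.15) and Cdx2 (0.11) in EECs, Onecut2 in tuft cells (-0.066) and Cdx2 in CHEs (0.098). The replicate block did so for Onecut2 against crypt cells (-0.17) and in tuft cells (-0.16), and a mitochondrial limit of 20% for Onecut2 against crypt cells (-0.061) and in goblet/Paneth cells (0.055), Cdx1 in EECs (-0.038) and Pdx1 in tuft cells (0.28). Merged rats did so for Gata4 against crypt cells (-0.20) and in EECs (0.020) and Pdx1 in tuft cells (0.11), and sums without mitochondrial genes for Gata4 against crypt cells (-0.073) and in EECs (0.047) and Cdx2 in EECs (0.018). Single changes were Cdx2 against crypt cells with no epithelial minimum (0.30), Pdx1 in tuft cells with ranges cut over both rats (0.042), and, in alternatives chosen after seeing the data, Onecut2 with the goblet-led cluster alone (0.021) and Hnf4a with the Paneth-led cluster alone (-0.79). The cause was not tested. Genes called in mature minus early enterocytes, 623, became 1231 with DESeq2, 1670 with totals, 1793 with no filter, 2856 with the replicate block, 1347 at 20%, 1700 with ranges cut over both rats, 239 with no epithelial minimum, 1019 with the Paneth-led cluster alone and 327 without the lowest enterocyte cluster, and those in CHEs, 1265, became 1991 with the block. Rises and falls without TMM were 876 and 4301 against 1873 and 2591 in enterocytes minus crypt cells, 205 and 1465 against 281 and 342 in mature minus early enterocytes, 1730 and 864 against 1399 and 1177 in goblet/Paneth cells, 1537 and 546 against 1028 and 1134 in EECs, 2812 and 630 against 1200 and 1355 in tuft cells, and 911 and 306 against 651 and 614 in CHEs. Described values moved at 20% for the Hnf4g share (31.6%) and Gata6 share (39.8%) of rat 2 enterocytes and the ratios of Gata4 (1.83), Gata6 (1.63), Cdx2 (0.68) and Hnf4g (0.433), and without mitochondrial genes for Gata4 (1.73), Gata6 (2.19), Cdx2 (0.742), Hnf4a (1.42) and Hnf4g (0.528), and 109 of 120 did not move beyond their interval. Leaving out either rat leaves 1 sum per class, a value with no test. EECs clustered with leukocytes under the gene limits, without doublets and with all variable genes, so those have no EEC value. The 31 crypt cells of rat 2 and the few tuft cells, CHEs and EECs of rat 1 limit what depth can show.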
